A study of Mus musculus with 9 samples.

Results

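The genes described here are 8 genes that mark mast cells in the mouse, namely Tpsab1, Tpsb2, Cma1, Mcpt4, Cpa3, Hdc, Fcer1a and Ms4a2, and the results give their transcript levels in freshly sorted Gfra1+ spermatogonial stem cells (SSC) and in 2 kinds of induced pluripotent stem cells. They were picked because Tpsab1 was high and variable among the SSC libraries and listed at 0 in every iPSC library, so the difference between SSC and iPSC and the spread among SSC are given below as descriptions, without a test. Each gene was found by the position of its locus in the deposited table, not by the name printed there. Of the 8, 6 had a locus, among 12581 genes to which a locus could be assigned. For Fcer1a and Ms4a2 no locus was named, so their transcript levels were not analysed here and only their promoters are described.

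RNA was sequenced in 9 libraries, 3 each of SSC, of iPSC derived from SSC (SSCiPSC) and of iPSC derived from fetal fibroblasts (fiPSC). All groups carried the same alleles, which the labels give as Gt(ROSA)26Sortm1(rtTA*M2)Jae, a reverse transactivator, joined to Col1a1tm3(tetO-Pou5f1,-Sox2,-Klf4,-Myc)Jae, by which doxycycline turns on these reprogramming factors. SSC were primary cells at passage 0 from testes of pups at postnatal day 6, taken apart with enzymes, depleted of adherent cells by plating and selected with magnetic beads for Gfra1, a receptor subunit on the stem cell surface. SSCiPSC and fiPSC are labelled passage 10 to 11 and grown in embryonic stem cell medium with LIF and doxycycline. The study's methods instead describe gradual withdrawal of doxycycline, a later passage for expression analysis and magnetic selection for the surface marker SSEA1. The study calls the samples biological, but the sources used here do not tie the libraries of a group to separate animals or lines, and p-values measure only the spread between these samples.

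Depth set what could be seen. From the steps between low FPKM values (fragments per kilobase of transcript, scaled to the library total), the SSC libraries held about 1770000, 4630000 and 1390000 counted fragments in replicates 1, 2 and 3, against 13180000 to 17500000 in the iPSC libraries. One fragment per kilobase was therefore worth 0.565, 0.216 and 0.722 FPKM in the SSC libraries and at most 0.0759 FPKM in iPSC. The germ cell label was checked first. Ddx4, a germ cell RNA helicase, was at 58.8, 80.7 and 50.7 FPKM in SSC, Zbtb16, a factor of undifferentiated spermatogonia, at 72.0, 77.4 and 51.9 FPKM, and Gfra1 itself at 37.7, 34.1 and 23.9 FPKM. The SSC libraries also held somatic transcripts, with the Sertoli cell genes Clu, Cst12, Cst9, Sox9 and Fshr summing to 1070, 1094 and 861 FPKM. SSC replicate 3 stood apart from the other SSC libraries in several somatic and blood-lineage marker lists, given at the end, and the mast cell levels are therefore printed library by library.

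Mast cells are granulated blood-lineage cells that settle in connective tissue, often beside vessels. Their granules store tryptases, chymases, carboxypeptidase A3 and histamine on a serglycin matrix, and antigen bound by IgE on the high-affinity receptor triggers their release. Growth and survival depend on Kit, the receptor for stem cell factor, and the transcription factors GATA2 and MITF drive many of the granule genes. In mice, Tpsab1, Tpsb2, Cma1, Mcpt4 and Cpa3 belong to the connective tissue type, whereas Mcpt1 and Mcpt2 are typical of mucosal mast cells.

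Since GATA factors act on mast cell genes, the 300 bases around each start (250 before, 50 after) were read from RefSeq for the members with an entry, which were Cpa3, Cma1, Mcpt4, Hdc, Fcer1a and Ms4a2. The 4 that also had a measured locus are printed on the GRCm38.p6 build, each read 5′ to 3′ on the minus strand where the gene lies, with capitals marking every AGATAA and AGATAG as well as TGATAA and TGATAG, on either strand. Cpa3 is at chr3:20242132-20242431, Cma1 at chr14:55944626-55944925, Mcpt4 at chr14:56062261-56062560 and Hdc at chr2:126618629-126618928.
Cpa3: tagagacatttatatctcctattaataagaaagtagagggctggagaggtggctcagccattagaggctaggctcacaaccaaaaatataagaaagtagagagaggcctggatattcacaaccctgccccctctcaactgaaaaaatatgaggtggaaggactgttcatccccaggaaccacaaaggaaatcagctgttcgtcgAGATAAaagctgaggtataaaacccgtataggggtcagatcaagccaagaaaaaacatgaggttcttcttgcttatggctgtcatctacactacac
Cma1: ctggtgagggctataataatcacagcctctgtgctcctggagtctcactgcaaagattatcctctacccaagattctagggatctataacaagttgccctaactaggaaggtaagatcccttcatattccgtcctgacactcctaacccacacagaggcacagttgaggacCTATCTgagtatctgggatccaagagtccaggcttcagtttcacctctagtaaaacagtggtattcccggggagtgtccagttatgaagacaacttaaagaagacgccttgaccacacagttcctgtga
Mcpt4: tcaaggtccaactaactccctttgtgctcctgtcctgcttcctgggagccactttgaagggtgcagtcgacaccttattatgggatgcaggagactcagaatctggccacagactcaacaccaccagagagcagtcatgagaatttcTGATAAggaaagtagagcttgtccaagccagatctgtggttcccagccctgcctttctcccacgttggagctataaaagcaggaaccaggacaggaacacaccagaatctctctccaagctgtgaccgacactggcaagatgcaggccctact
Hdc: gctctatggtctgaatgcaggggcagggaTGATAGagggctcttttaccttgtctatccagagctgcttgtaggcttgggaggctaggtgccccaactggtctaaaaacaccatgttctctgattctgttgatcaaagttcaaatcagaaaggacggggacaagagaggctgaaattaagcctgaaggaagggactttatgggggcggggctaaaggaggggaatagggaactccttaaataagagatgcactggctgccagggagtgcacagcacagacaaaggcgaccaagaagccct

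Each of these 4 promoters held 1 such word, at -46 in Cpa3, -79 in Cma1, -103 in Mcpt4 and -221 in Hdc, counted from the RefSeq start. For Hdc the whole window lies inside the gene interval printed below, so that start differs from the start of the interval. Fcer1a held 1 at -92 and Ms4a2 held 3, at -224, -37 and -11. So all 6 members with an entry held at least 1 match, while 29.8% of 32851 promoters of the same length did, and 7.77% held 2 or more. The E-box CATGTG, the letters of a MITF-type site and a different word from the GATA ones, was found on either strand in Fcer1a alone of the 6 and in 14.2% of all promoters. A match of letters is a description of the sequence, and no binding was measured in these libraries.

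Tpsab1 (chr17:25343245-25345562, minus strand), which encodes a granule tryptase, was at 50.3, 163 and 487 FPKM in SSC replicates 1, 2 and 3. It was listed at 0 in all 6 iPSC libraries, where 3 fragments would have given at most 0.128 FPKM. Every SSC library was thus far above every iPSC library, while the SSC libraries themselves were 9.68-fold apart. Among 8545 genes with a locus of their own, Tpsab1 ranked 586th by FPKM in replicate 1, 91st in replicate 2 and 11th in replicate 3.

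Tpsb2 (chr17:25366305-25369098, plus strand) encodes the other main granule tryptase and lies beside Tpsab1. It was at 11.8, 55.5 and 156 FPKM in SSC and listed at 0 in all 6 iPSC libraries, where 3 fragments would have given at most 0.200 FPKM. Its locus covered 63.1% of the annotated gene. The same library was highest and the same lowest as for Tpsab1, and Tpsb2 stood at 23.5%, 34.1% and 32.1% of the Tpsab1 level. The other genes of this region of chromosome 17, Prss28, Prss29 and Tpsg1, had no locus named.

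Cma1 and Mcpt4, genes of the chymase family, lie on chromosome 14. Cma1 (chr14:55941451-55944675, minus strand) was at 15.5, 75.8 and 212 FPKM in SSC. In iPSC it was listed at 0 in 5 libraries and at 0.0806 FPKM in fiPSC replicate 3, about 1 fragment. Mcpt4 (chr14:56059629-56062313, minus strand) was at 24.7, 99.8 and 218 FPKM in SSC and listed at 0 in all 6 iPSC libraries. Cma1 and Mcpt4 were close to each other in replicate 3, but in replicates 1 and 2 Mcpt4 was the higher. Between them lies Mcpt2, a mucosal type protease, at 2.31, 2.95 and 24.7 FPKM in SSC and 0 in all iPSC libraries. Its SSC values were about 3.69, 12.3 and 30.8 fragments, so that of replicate 1 was near the floor of 3 fragments. The neighbours Cma2, Mcpt1, Mcpt9, Mcpt8, Ctsg and Gzmb, which encode other serine proteases of mast cells, basophils, neutrophils and lymphocytes, had no locus named. Of 1009 stretches of 100 bases in Mcpt4 transcripts, 1 also occurs in another gene, Cma2, and none of those of Tpsab1, Tpsb2, Cpa3, Cma1 or Hdc occurs elsewhere, so identical stretches of that length were rare among these protease genes.

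Cpa3 (chr3:20215620-20242181, minus strand) encodes carboxypeptidase A3, which trims peptides from their carboxyl end within the granule. It was at 4.49, 31.2 and 106 FPKM in SSC, the widest range among the members at 23.5-fold. In iPSC it was listed at 0 in 5 libraries and at 0.0502 FPKM in SSCiPSC replicate 1, about 1 fragment. The low SSC value rested on about 10.3 fragments, against 187 and 189 in replicates 2 and 3, so its ratio is the least certain of the 6.

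Hdc (chr2:126593667-126619299, minus strand) encodes histidine decarboxylase, the enzyme that makes histamine. It was at 8.21, 16.1 and 47.5 FPKM in SSC. Unlike the proteases it had a low value in every iPSC library, 0.141, 0.284 and 0.0738 FPKM in SSCiPSC and 0.210, 0.0633 and 0.0724 FPKM in fiPSC. The SSC and iPSC ranges did not overlap, and the SSC range, at 5.78-fold, was the narrowest of the 6.

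**Figure D1:**
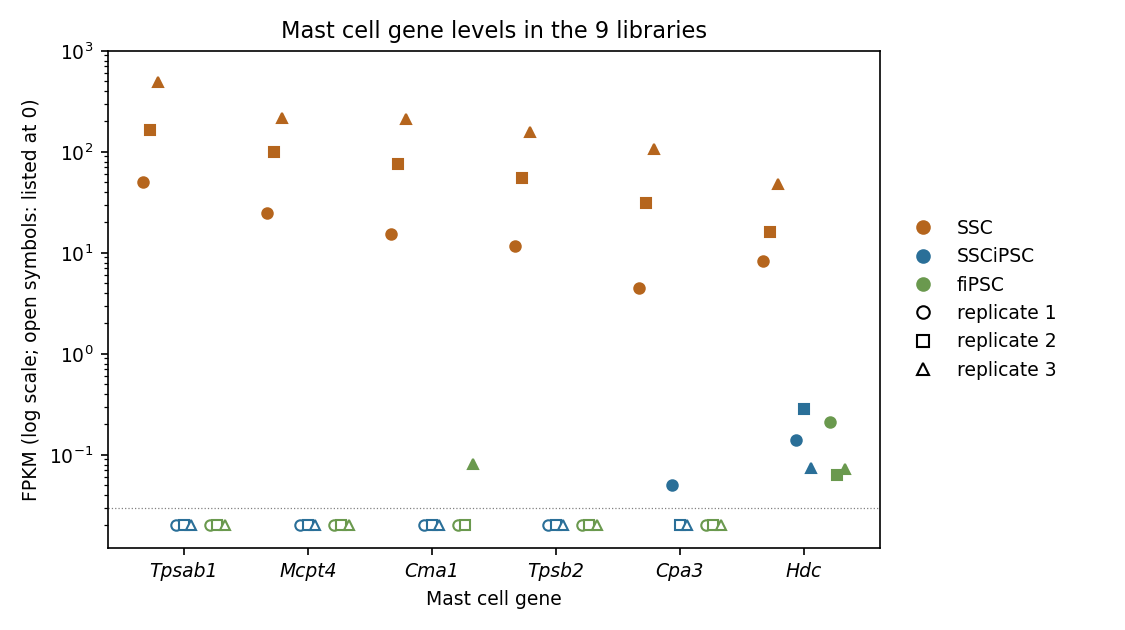
FPKM (log axis) of the 6 mast cell genes with a locus in the 9 libraries, 1 symbol per library, colour for the group and shape for the replicate; open symbols under the dotted line are libraries listed at 0. SSC replicate 3 was the highest and replicate 1 the lowest for all 6 genes, and only Hdc had a value above 0 in every iPSC library.

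For all 6 genes each SSC library was above each iPSC library. This held for 28.7% of 36544 loci tested against SSCiPSC and for 28.5% of 38007 against fiPSC, and nothing is read from the comparison because that contrast chose the members. All 6 passed the filter on low values in both comparisons, and only because of SSC. Between fiPSC and SSCiPSC, 0 of the 6 passed the filter of 1 FPKM in 3 libraries, so no limma test was made, and for Tpsab1 the choice itself had fixed both groups at 0. In bulk RNA, fewer cells of a type and less RNA per cell cannot be told apart.

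Within SSC the members moved together. Replicate 3 exceeded replicate 1 by 8.84-fold for Mcpt4, 9.68-fold for Tpsab1, 13.2-fold for Tpsb2 and 13.7-fold for Cma1, and replicate 2 lay between for all 6. The summed level of the 6 was 115, 441 and 1226 FPKM. Their proportions differed less than their levels. Tpsab1 made up 43.8%, 36.9% and 39.7% of the sum, Mcpt4 21.5%, 22.6% and 17.8%, and Cma1 13.5%, 17.2% and 17.3%. Tpsb2 gave 10.3%, 12.6% and 12.7%, and the shares of Cpa3, at 3.91%, 7.08% and 8.61%, and Hdc, at 7.15%, 3.64% and 3.87%, changed the most as a fold of the share, whereas Tpsab1 changed the most in percentage points.

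Replicate 2 was the deepest SSC library and replicate 3 the shallowest, and the part of depth in the spread was not tested. In estimated fragments, counted on the longest protein-coding transcript, Tpsab1 had 157, 1333 and 1192, Mcpt4 41.4, 439 and 286, and Hdc 32.5, 166 and 147. Counting error is thus largest in replicate 1.

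Few genes had such a spread. The members were picked partly for the spread of Tpsab1, so nothing is read from their place among these genes. Of 3550 genes with a mean of at least 10 FPKM in SSC, 651 (18.3%) were lowest in replicate 1 and highest in replicate 3, and the median ratio of replicate 3 to replicate 1 was 1.02. The ratio reached 5 for 21 genes (0.592%), which include the 6 mast cell genes. Lcn2 and Rgs1 were counted among the 21 although, at 0 in replicate 1, they have no finite ratio. The reverse, replicate 1 at 5 times replicate 3 or more, held for 7 genes (0.197%). Hdc was just above that threshold among the members, at 5.78, and the nearest gene below it had a ratio of 4.57. The other 15 genes were of several kinds, and the examples given here were chosen after their values were seen. They include Srgn, the serglycin core protein of granules (6.48, 14.3 and 62.7 FPKM), Rgs1, a regulator of chemokine receptor signalling (0, 14.0 and 122 FPKM), Rac2, a GTPase of blood cells (0.884, 4.39 and 34.1 FPKM), Plek, a protein kinase C substrate of platelets and leukocytes (3.49, 8.40 and 28.1 FPKM), Tyrobp, an adaptor of myeloid receptors (6.83, 5.75 and 43.7 FPKM), and Ccl3, a chemokine (3.24, 4.96 and 31.1 FPKM). The 21 also include genes of other kinds, such as the collagen gene Col6a1 and Sdhc, a subunit of succinate dehydrogenase.

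Likeness to Tpsab1 was measured as the distance between centred log2(FPKM + 1) values over the 3 SSC libraries, among 66 genes with at least 10 FPKM on average in SSC and no iPSC library above 1% of that. The nearest were Mcpt4 (0.328), Tpsb2 (0.348), Cma1 (0.411), Cpa3 (0.786), S100a8 (0.895), Nr5a1 (1.05), Il6 (1.05) and Creb5 (1.16), and the median distance was 2.23. With only 3 libraries this is a description of their pattern. Hdc was not among the 66 because its value in SSCiPSC replicate 2, 0.284 FPKM, exceeded the limit, whereas the other iPSC libraries were below it. S100a8, a calcium-binding protein of neutrophils, was at 6.86, 15.1 and 114 FPKM, so replicate 3 exceeded replicate 2 by a larger factor than for any of the 6 members measured. Nr5a1, a steroidogenic transcription factor, was at 4.67, 7.90 and 18.8 FPKM, and Il6, a cytokine, at 5.31, 10.8 and 20.4 FPKM.

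**Figure D2:**
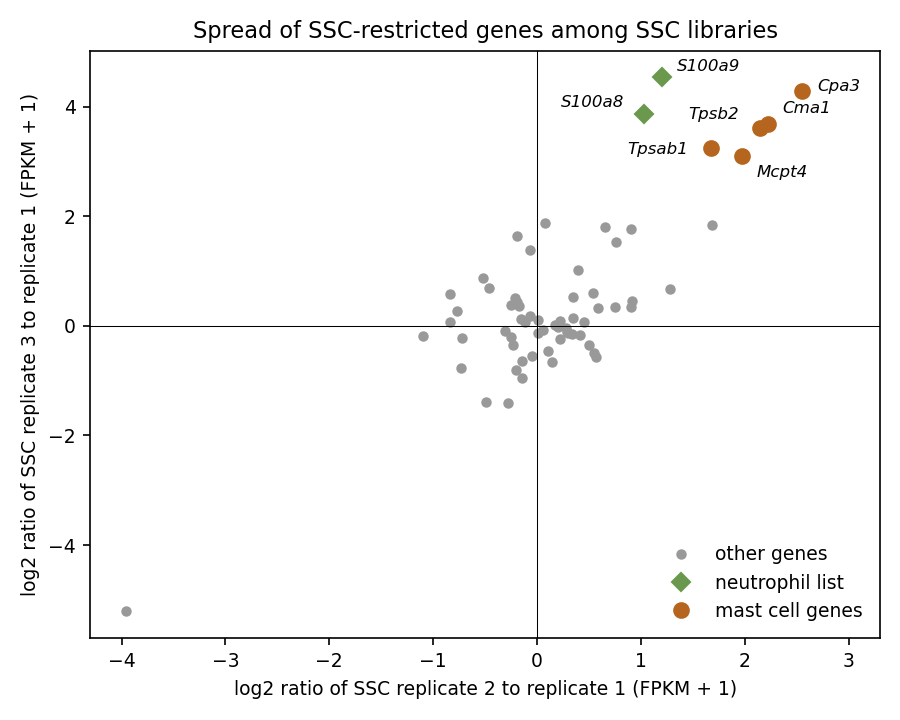
Log2 ratio of SSC replicate 2 to replicate 1 (x axis) and of replicate 3 to replicate 1 (y axis), both on FPKM + 1, for the 66 genes restricted to SSC, 1 point per gene. The 5 mast cell genes that met the limits lie together at the upper right, S100a8 and S100a9 lie at smaller x values beside them, and the point at the lower left is Cyp1a1, at 35.9, 1.37 and 0 FPKM.

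Other genes used by mast cells were taken as a list of 46, of which 24 had a locus of their own, 8 shared an interval with another locus, 3 had only a fragment and 11 had none. SSC were compared with SSCiPSC by limma on log2(FPKM + 1), with Benjamini-Hochberg adjustment over all loci. With no filter on low values, 9 of the 24 were higher in SSC and 4 lower, against 17.1% and 20.6% of all loci, and the median log2 difference was 1.25 against -0.03. Against fiPSC, 9 of 24 were higher and 4 lower (all loci, 17.4% and 23.2%), with a median of 0.98 against -0.08. Mcpt2 and Mrgprb1, listed at 0 in iPSC, lie above both medians, and both comparisons use the same SSC libraries. All loci include many not assigned to a named gene, so their shares are an unlike background for the 24. The share among named genes was not computed with no filter, and in the filtered fit below it was higher than that of all loci. The unfiltered counts are therefore a description too. With the filter used for all other tests, 10 of 18 were higher than in SSCiPSC and 3 lower (all loci, 24.1% and 26.2%, 50.3% called, or 30.2% and 33.1% with 1 locus per named gene). Against fiPSC, 9 of 20 were higher and 3 lower (all loci, 23.7% and 28.0%, 51.8% called, or 31.0% and 34.4%). These filtered counts are given as a description, since 8 of the 10 and 9 of the 9 were below 1 FPKM in every iPSC library of the comparison and passed the filter through SSC alone. Leaving out any 1 SSC library lowered the filtered calls from 13 to 4 or 5 against SSCiPSC and from 12 to 4 or 5 against fiPSC, since the filter then left 9 or 10 to test, and without the filter 13 to 16 were called.

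Adjusted p-values for Tph1, Mrgprb1, Srgn, Mcpt2, Fcer1g, Csf2rb, Spi1, Lcp2, Il1rl1, Alox5ap and Lyn, which were low in iPSC, are from the limma fit with no filter. Tph1, which makes serotonin, was at 2.87, 8.06 and 11.0 FPKM in SSC and at most 0.061 FPKM in iPSC (log2 difference from SSCiPSC 2.88 ± 0.45 SE, limma adjusted p = 0.0037). Mrgprb1, a member of the Mas-related receptor family, was at 1.56, 4.78 and 6.99 FPKM and 0 in all iPSC libraries (adjusted p = 0.0082 against SSCiPSC by limma). Both had the order of the granule proteases, lowest in replicate 1 and highest in replicate 3. Srgn was higher than in SSCiPSC by 3.79 ± 0.75 (SE) on the log2 scale (limma adjusted p = 0.0090), and Mcpt2 passed as well (limma adjusted p = 0.031), though not in the filtered fit when any 1 SSCiPSC library was left out (0.070 to 0.073).

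Receptor and signalling genes varied in another way or in the same way as the proteases. Fcer1g, the signalling chain of the IgE receptor and of several myeloid receptors, was at 9.19, 6.53 and 42.0 FPKM in SSC and at most 0.867 FPKM in iPSC (log2 difference from SSCiPSC 3.77 ± 0.65 SE, limma adjusted p = 0.0053). Csf2rb, the common beta chain of the interleukin-3 receptor family, was at 9.22, 8.85 and 19.8 FPKM (limma adjusted p = 0.00066 against SSCiPSC). Both were lowest in replicate 2. Spi1, a myeloid transcription factor, was also lowest there, at 2.75, 2.52 and 13.4 FPKM (limma adjusted p = 0.027, but in the filtered fit 0.071 without SSCiPSC replicate 1 and 0.067 without replicate 3). Lcp2, an adaptor downstream of the IgE receptor, was at 4.55, 6.38 and 14.6 FPKM and at most 0.194 FPKM in iPSC (limma adjusted p = 0.0024). Il1rl1, the receptor for interleukin-33 on mast cells, had the order of the proteases, at 0.725, 3.05 and 5.56 FPKM in SSC, but did not pass against fiPSC (limma adjusted p = 0.16) or SSCiPSC (0.079). Alox5ap, which presents arachidonic acid for leukotriene synthesis, was at 5.63, 3.27 and 9.70 FPKM and passed only against SSCiPSC (limma adjusted p = 0.031, but in the filtered fit 0.054 to 0.076 without SSC replicate 1 or 3 or SSCiPSC replicate 2 or 3, and 0.062 with the replicate block). Lyn, a kinase that starts IgE receptor signalling, was at 2.33, 2.98 and 8.53 FPKM and passed only against fiPSC (limma adjusted p = 0.036, but in the filtered fit 0.087 to 0.094 without any 1 fiPSC library). Between fiPSC and SSCiPSC themselves, the log2 difference was 0.67 ± 0.35 (SE) for Alox5ap (limma adjusted p = 0.54) and -0.15 ± 0.22 (SE) for Lyn (limma adjusted p = 0.84), so neither gene was shown to differ between the comparisons. Over the 24 genes, 10 were lowest in replicate 1 and highest in replicate 3. That order held for 18.3% of the 3550 genes with a mean of at least 10 FPKM in SSC. Those genes are a different set, since the 24 had no such limit, so the count is a description only.

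Some mast cell genes went the other way. Kit was at 10.1, 10.1 and 8.86 FPKM in SSC, 42.4, 47.5 and 48.4 FPKM in SSCiPSC and 23.9, 27.8 and 26.0 FPKM in fiPSC, and it fell by 2.14 ± 0.14 (SE) on the log2 scale from SSCiPSC to SSC (limma adjusted p = 0.00013). Kit is also made by spermatogonia and pluripotent cells, and within SSC it did not vary with the proteases. Inpp5d, a lipid phosphatase that restrains mast cell signalling, was at 1.29, 1.39 and 3.50 FPKM in SSC against 35.6 to 42.8 FPKM in SSCiPSC, and Syk, a kinase of the IgE receptor pathway, at 3.61, 5.21 and 5.81 FPKM against 21.5 to 24.4 FPKM. Siglecf, a surface gene of the list that did not reach the filter, was also lower in SSC in the fit with no filter. Its log2 difference was -0.86 ± 0.16 (SE) from SSCiPSC (limma adjusted p = 0.0068) and -0.84 ± 0.18 (SE) from fiPSC (limma adjusted p = 0.012). The alpha and beta chains of the IgE receptor, Fcer1a and Ms4a2, are the members with no locus named. Lat and Plcg2, other parts of that pathway, did not pass the test against either kind of iPSC.

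Between fiPSC and SSCiPSC, 0 of 7 tested genes of this list passed in limma, where 0.0678% of all loci did, and 2 had an unadjusted p below 0.05. These were Kit, with a log2 difference of -0.81 ± 0.11 (SE, limma adjusted p = 0.10), and Plcg2, at 0.60 ± 0.17 (SE, limma adjusted p = 0.29).

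Of the transcription factors, Gata1, which Sertoli cells also make, was at 5.60, 2.1 and 1.75 FPKM in SSC, highest where the proteases were lowest. It was at most 1.04 FPKM in iPSC and, with no filter, did not pass against SSCiPSC (limma adjusted p = 0.053) or fiPSC (0.073). With the filter, which its SSC libraries alone satisfy, the value against SSCiPSC was 0.036, and 0.052 to 0.14 without SSC replicate 1 or 2 or any 1 SSCiPSC library. Gata2 had an interval shared with another locus, so its values of 3.52, 4.91 and 6.83 FPKM in SSC and at most 0.533 FPKM in iPSC are uncertain, as are those of Mitf, at 0.982, 1.25 and 1.71 FPKM in SSC, 20.2, 12.4 and 13.7 FPKM in SSCiPSC and 10.1, 10.4 and 11.9 FPKM in fiPSC, which run the other way. Kitl, which encodes stem cell factor and is made by Sertoli cells, was at 55.3, 58.8 and 69.9 FPKM in SSC and at most 0.678 FPKM in iPSC. Its SSC libraries were thus close together while the mast cell genes were not.

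**Figure D3:**
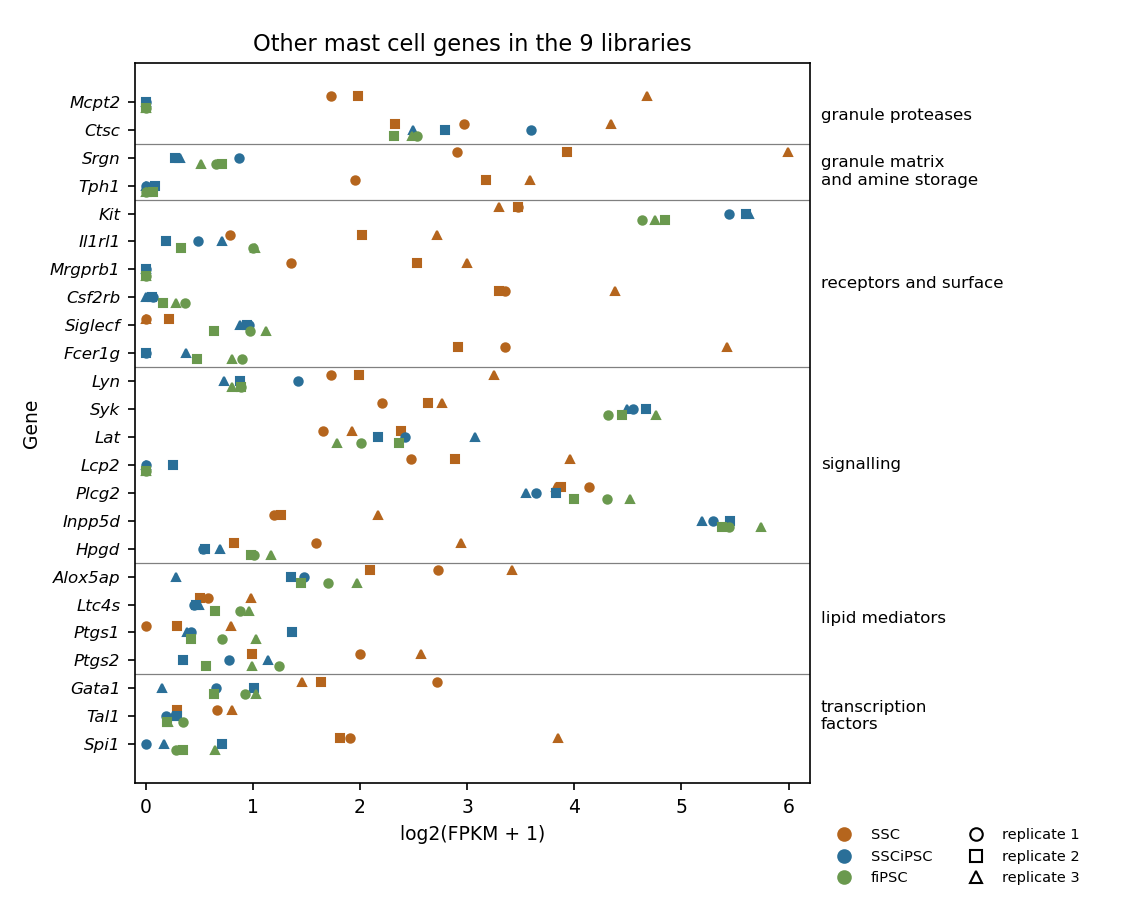
Log2(FPKM + 1) of the 24 other mast cell genes with a locus of their own, grouped by function, with colour for the group and shape for the replicate. Among the genes with all SSC libraries above all iPSC libraries are Mcpt2, Srgn, Tph1, Mrgprb1, Lcp2, Csf2rb, Fcer1g and Spi1, whereas Kit, Syk and Inpp5d are lower in SSC.

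Markers of other cells were read beside these levels. The neutrophil genes S100a8 and S100a9, 2 of 7 on that list with a locus, summed to 10.4, 24.6 and 219 FPKM in SSC and were listed at 0 in iPSC, and the defining markers Elane, Mpo, Ly6g, Camp and Ngp had no locus named. S100a9 alone was at 3.55, 9.50 and 104 FPKM. The macrophage list, 7 of 8 genes with a locus and led by C1qa, summed to 64.6, 23.8 and 198 FPKM, and all 7 were highest in replicate 3, as the mast cell genes were, but lowest in replicate 2. Csf1r, the macrophage growth factor receptor, for instance, was at 6.17, 1.89 and 25.2 FPKM. The fibroblast list, 6 of 6 genes and led by Col3a1, summed to 107, 97.0 and 298 FPKM, and the Leydig cell list, 4 of 7 and led by Cyp11a1, to 164, 132 and 255 FPKM. In contrast, the germ cell list, 7 of 8 and led by Dazl, summed to 554, 710 and 479 FPKM, and the Sertoli cell list had its lowest sum in replicate 3. SSC replicate 3 was thus the highest library for these blood-lineage, fibroblast and Leydig lists. The part these cells play in the mast cell levels was not tested.

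Basophils share Hdc and the IgE receptor with mast cells. Their defining proteases Mcpt8 and Prss34 had no locus named, and of 4 basophil genes only Itga2b had one, at 0, 1.16 and 1.57 FPKM in SSC. None of 5 eosinophil genes had a locus, and of 6 T and NK cell genes only Cd3e did, at 0, 0.337 and 0 FPKM in SSC.

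**Figure D4:**
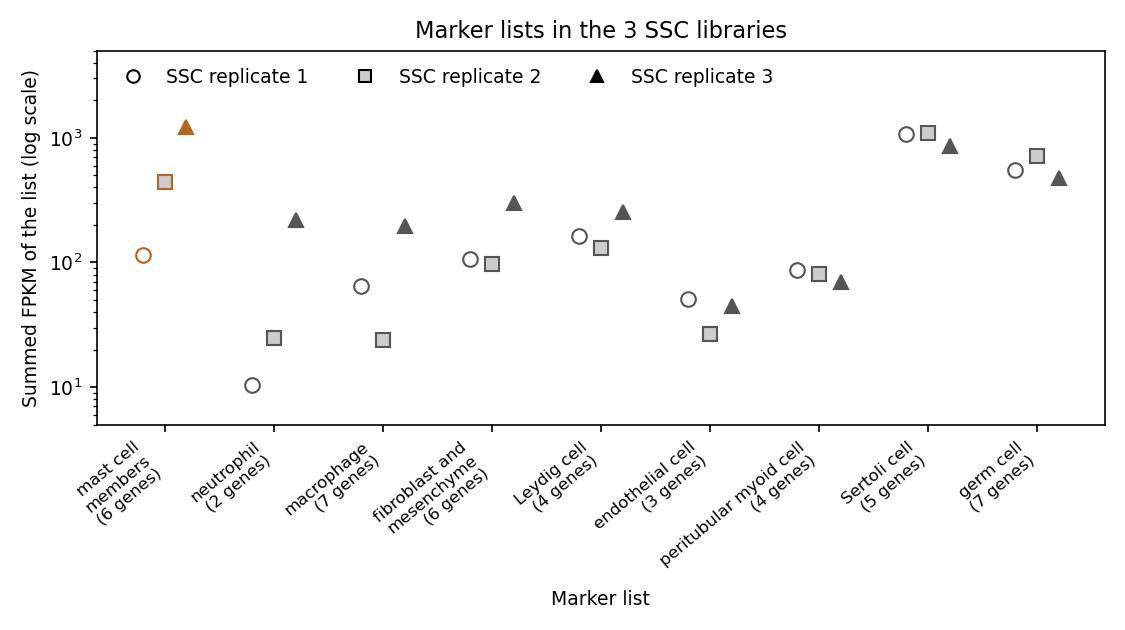
Summed FPKM (log axis) of marker lists in the 3 SSC libraries, with the number of genes that had a locus of their own; mast cell genes are in brown, other lists in grey. The mast cell and neutrophil lists were lowest in replicate 1, the macrophage list was lowest in replicate 2, and the peritubular myoid, Sertoli and germ cell lists were lowest in replicate 3.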

How the data were processed

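RNA of 9 mouse libraries was analysed. Per the methods and the submitters' processing notes, the authors made stranded paired-end libraries and processed reads with Trimmomatic 0.32, TopHat2 2.0.9, Bowtie2 2.1.0 and Cufflinks 2.2.1. The labels name both a ribosomal depletion and an mRNA library kit, the methods only the latter, so the selection of RNA is uncertain. The deposited values are FPKM per assembled locus (headed RPKM), with no fragment counts. The notes name mm9, but 92.8% of 16363 stranded loci lay on a same-strand protein-coding GRCm38 gene (38.3% when moved by 1000000 bases), so GRCm38 was used. Of 54914 loci, 1 blank locus was left out.

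A gene's own locus lay at least 50% within it, on its strand, with an interval no other locus shared; the one with the highest mean was taken. Depth was recovered from FPKM steps: 100% of low values lay within 0.05 of whole fragments per library. Floors are 3 fragments and, like the depths, cover counting error only. No count test was run, since fragment numbers depend on an assumed transcript. Pairs of groups were tested by limma 3.58.1 (trend, R 4.3.3) on log2(FPKM + 1), leaving out loci that did not reach 1 FPKM in 3 of the 6 libraries, with Benjamini-Hochberg adjustment at 0.05. Genes of the wider list that were low in iPSC were tested with no filter. The scripts were tested on simulated data. Alternatives were a pseudocount of 0.1, no filter, median-ratio scaling, all 9 libraries in 1 fit, a replicate block, no trend and leaving out each library. The members and lists were chosen with earlier results of these data known. The definition of an own locus and the choice of examples among the 21 genes were made after values were seen. Genes named otherwise are the members, their neighbours and genes sharing sequence with them, genes of the lists and the 8 most like Tpsab1. Cyp1a1 was named after its values were seen.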

Additional observations from a re-analysis of the deposited data

How the results depend on the processing

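The mean level of the mast cell genes in SSC depended on the libraries. The mean log2 value of Tpsab1 was 7.32 with all 3, 8.14 without SSC replicate 1 and 6.52 without SSC replicate 3, and that of Cpa3 was 4.73, 5.87 and 3.73. All 6 genes were higher without replicate 1 and lower without replicate 3. Another pseudocount and median-ratio scaling gave 7.31 and 7.16 for Tpsab1 and 4.63 and 4.59 for Cpa3. Leaving out each library gave 4 to 10 called genes of the wider list against SSCiPSC (13 with all) and 4 to 9 against fiPSC (12 with all), and 11357 to 13901 and 11300 to 16585 called loci (18396 and 19680 with all). Without SSC replicate 1, 2 or 3 and without the filter, the list gave 14, 15 and 13 calls against SSCiPSC and 14, 16 and 14 against fiPSC; these settings were chosen after seeing the data. Between fiPSC and SSCiPSC, 23 called loci became 11 with all 9 libraries in 1 fit, 6 with the replicate block and 2 to 10 when a library was left out. The samples share only a replicate number: same-numbered libraries did not deviate together (correlations from -0.236 to 0.021), and the replicate block gave 13 calls of the list against SSCiPSC, 13 against fiPSC and 0 between the iPSC. Median-ratio scaling shifted the median of all loci from -0.11 to -0.28 against SSCiPSC and from -0.17 to -0.31 against fiPSC. The share of called loci higher in SSC was 47.9% against SSCiPSC, but 31.3% to 33.9% without 1 SSC library and 57.3% to 58.1% without 1 SSCiPSC library. Against fiPSC it was 45.8%, 32.3% to 34.8% and 57.0% to 57.9%. With no filter the share against SSCiPSC was 45.4% with all libraries, and 47.3%, 45.9% and 50.4% without SSC replicate 1, 2 or 3. The same settings gave 42.9%, and 44.1%, 43.3% and 47.1%, against fiPSC. So the fall seen without 1 SSC library was seen only with the filter. Leaving out an iPSC library was not run with no filter, and the causes of the shifts were not tested. At SSC depth, levels under about 1 FPKM rest on few fragments. Higher levels of short transcripts can do so too. In SSC replicate 1, S100a8 at 6.86 FPKM was about 3.96 fragments and S100a9 at 3.55 FPKM about 2.26, so their ratios to that library are uncertain.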
